A study of Danio rerio with 4 samples.

Results

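The miRNAs miR-129, miR-132 and miR-212 were followed in small RNA libraries of whole zebrafish larvae exposed to 2,2',4,4'-tetrabromodiphenyl ether (BDE47), a brominated flame retardant. They were taken by miRNA number, every arm included, which gave 5 of the 245 zebrafish miRNAs in the deposited table: dre-miR-129-5p, dre-miR-129-3p, dre-miR-132-5p, dre-miR-132-3p and dre-miR-212. The group was chosen from its measured values, because miR-129-3p and miR-132-3p had been seen to be higher in larvae given 500 μg/L BDE47 than in larvae given the DMSO vehicle. The comparison of these 2 libraries is therefore a description of the choice. All larvae were wild type Tuebingen fish collected at 6 days post fertilization (dpf). There were 4 conditions, namely blank larvae, DMSO larvae (the vehicle), 5 μg/L larvae and 500 μg/L larvae, the last 2 named by their BDE47 concentration. Both BDE47 solutions also contained DMSO, exposure began at the gastrula stage, and whether blank larvae received any DMSO was not labelled. Each condition was 1 library made from RNA of pooled larvae, so no difference below has a replicate check and every value describes these libraries.

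miRNAs are short RNAs that bind partly complementary sites in mRNAs and lower their translation or stability, mainly through the seed at their 5′ end. In rodents, miR-132 and miR-212 are made from one transcript that neuronal activity induces through the transcription factor CREB. There miR-132 promotes the growth of dendrites, and its 3p product and that of miR-212 share a seed. miR-129-5p acts on ion channels and synaptic proteins in rodent neurons, and miR-129-3p is known for promoting the assembly of cilia. A hairpin gives 2 strands, the 5p and the 3p arm, of which usually 1 accumulates while the other is degraded.

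In the RefSeq annotation of the GRCz12tu assembly, which was used for names and gene order only, there were 4 genes for miR-129, 2 for miR-132 and 2 for miR-212. Each miR-132 gene lay next to a miR-212 gene with no other annotated gene between them, while no miR-129 gene lay beside either. The deposited table did not separate gene copies, so each value is the sum over the copies that give the same mature miRNA. The entry for miR-212 carried no arm.

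The listed miRNAs held between 8858169 and 10357704 reads per library. Values are normalized counts, that is reads divided by the authors' size factor for the library, and were between 78.1 and 5677 for the 5 miRNAs. Each 95% interval was computed from the reads by the exact Clopper-Pearson method. It covers counting error alone and leaves out differences between larvae and between libraries. Reads copied from the same molecule by PCR make it too narrow. Ratios are on the log2 scale, after 1 was added to each normalized count. All 5 miRNAs were among the 234 whose mean over the libraries reached 10 normalized counts, which are the background for every count below. A miRNA is called when it differs more than 2-fold.

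miR-129-5p was the most abundant of the 5 in every library. It had 3647 normalized counts in blank larvae, 3742 in DMSO larvae, 3944 in 5 μg/L larvae and 5677 in 500 μg/L larvae. Blank and DMSO larvae were not separated by counting error, 5 μg/L larvae lay slightly above both, and 500 μg/L larvae stood apart from the other 3. Its rank among the 234 miRNAs was 85 in 500 μg/L larvae and 105 in each of the other libraries.

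miR-129-3p, the other arm of miR-129, was scarcer. Its level was 809 normalized counts in blank larvae, 576 in DMSO larvae, 982 in 5 μg/L larvae and 1248 in 500 μg/L larvae. DMSO larvae were lowest, followed by blank, 5 μg/L and 500 μg/L larvae, and each step in this order was larger than counting error.

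miR-132-3p, the main arm of miR-132, showed the same order. It had 1556 normalized counts in blank larvae, 1347 in DMSO larvae, 1865 in 5 μg/L larvae and 2799 in 500 μg/L larvae, again with each step beyond counting error. Its share of all listed reads was 0.0285% in 500 μg/L larvae (0.0275 to 0.0296%), against 0.0145% in DMSO larvae (0.0138 to 0.0152%).

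miR-132-5p was the scarcest of the 5 and the only one whose highest level was in DMSO larvae. It had 84.7 normalized counts in blank larvae, 135 in DMSO larvae, 78.1 in 5 μg/L larvae and 101 in 500 μg/L larvae, from 79, 147, 80 and 96 reads. The blank, 5 μg/L and 500 μg/L libraries were not separated by counting error, and all 3 lay below the DMSO library.

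miR-212 had 2212 normalized counts in blank larvae, 2088 in DMSO larvae, 2177 in 5 μg/L larvae and 2887 in 500 μg/L larvae. The blank, DMSO and 5 μg/L libraries were not separated by counting error, while the 500 μg/L library was above each of them.

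**Figure D1:**
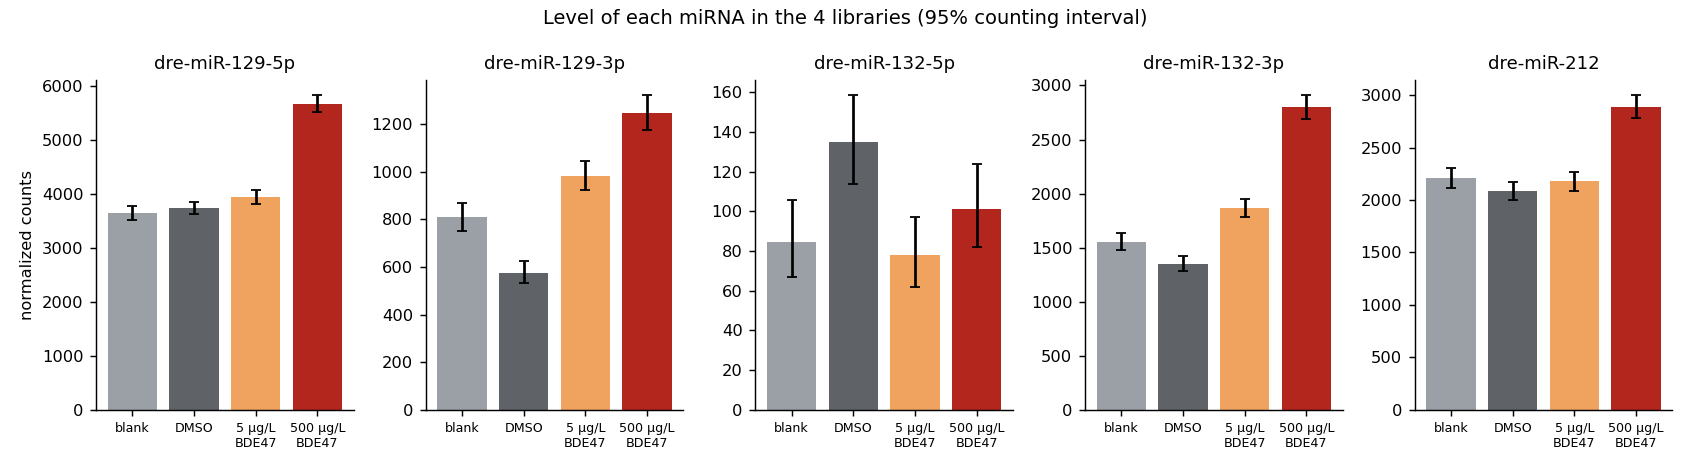
Normalized counts (y axis, each panel on its own scale from 0) of the 5 miRNAs in blank, DMSO, 5 μg/L and 500 μg/L larvae, with 1 library per bar and error bars for the exact 95% counting interval. The 500 μg/L library is highest for 4 of the 5 miRNAs, and miR-132-5p is highest in DMSO larvae with 135 normalized counts.

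Between 500 μg/L and DMSO larvae, the comparison that chose them, miR-129-3p had a log2 ratio of 1.11 (0.97 to 1.26) and miR-132-3p of 1.05 (0.96 to 1.15). These were ranks 2 and 3 of the 234 miRNAs from the highest. Next above them was miR-735 with 3.26, and next below was miR-145, a miRNA of smooth muscle, with 0.97 (0.90 to 1.04). The 2-fold threshold thus fell between miR-132-3p and miR-145, whose intervals overlapped, and the intervals of miR-129-3p and miR-132-3p both reached below 2-fold. miR-129-5p had a log2 ratio of 0.60 (0.54 to 0.66), miR-212 of 0.47 (0.39 to 0.55) and miR-132-5p of -0.41 (-0.80 to -0.03). Of the 5 miRNAs, 2 were beyond 2-fold, both higher. Of all 234, 8.97% were beyond 2-fold in either direction, 3 higher and 18 lower. A counting interval above 0 was found for 4 of the 5 and for 39.7% of all 234. Because these values chose the group, nothing is read from the counts.

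The blank library did not enter the choice, but the 500 μg/L library did, so high values in it were partly fixed by the choice and are given as a description. All 5 miRNAs were higher in 500 μg/L than in blank larvae, as were 50.4% of all 234, and 4 of them had a counting interval above 0, where 37.6% of all 234 miRNAs did. miR-132-3p had 2799 normalized counts in 500 μg/L larvae against 1556 in blank larvae, a log2 ratio of 0.85 (0.75 to 0.94) and rank 3. The arms of miR-129 gave nearly the same ratio, 0.64 (0.58 to 0.70) for miR-129-5p and 0.63 (0.49 to 0.76) for miR-129-3p. miR-212 followed with 0.38 (0.30 to 0.47). miR-132-5p, at 0.26 (-0.19 to 0.71), was within counting error. None of the 5 was beyond 2-fold in this comparison, where 0.855% of all miRNAs were.

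Neither library of the comparison of 5 μg/L with blank larvae had entered the choice. There miR-129-3p had 982 normalized counts in 5 μg/L larvae and 809 in blank larvae, a log2 ratio of 0.28 (0.14 to 0.42). miR-132-3p had a log2 ratio of 0.26 (0.16 to 0.36), and miR-129-5p of 0.11 (0.05 to 0.18). These 3 of 5 had intervals above 0, as did 32.5% of all 234 miRNAs. miR-212 was at -0.02 (-0.11 to 0.06) and miR-132-5p at -0.12 (-0.58 to 0.35), both within counting error. Scaling to the total of the listed reads moved every log2 ratio of this comparison by -0.09. That put miR-129-5p at 0.02, below its interval, and miR-212 at -0.114, just below the lower end of its own, -0.110. None of the 5 passed 2-fold, nor did any other miRNA (0% of 234). The largest of these ratios, that of miR-129-3p, was rank 18 of the 234, so other miRNAs differed more between the same libraries.

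The comparison of 5 μg/L with DMSO larvae shares the DMSO library with the one that chose the group. In it miR-129-3p had the highest log2 ratio of all 234 miRNAs, 0.77 (0.62 to 0.91). miR-132-3p had 0.47 (0.37 to 0.57), at rank 13. miR-129-5p was at 0.08 (0.01 to 0.14) and miR-212 at 0.06 (-0.02 to 0.15), while miR-132-5p was lower, at -0.78 (-1.20 to -0.38). Scaling to the total of the listed reads moved every log2 ratio of this comparison by -0.12, which put miR-129-5p at -0.05 and miR-212 at -0.06. The intervals of 3 of the 5 lay above 0, where 39.3% of all miRNAs did, and 0 of the 5 were beyond 2-fold, where 2.99% were.

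Blank and DMSO larvae, which received no BDE47, also differed for 3 of the 5. The DMSO library entered the choice, so higher values of miR-129-3p and miR-132-3p in blank larvae were partly fixed by it. miR-129-3p was higher in blank than in DMSO larvae by a log2 ratio of 0.49 (0.33 to 0.64), at rank 9. miR-132-3p was higher by 0.21 (0.10 to 0.31), and miR-132-5p had a log2 ratio of -0.66 (-1.08 to -0.27). miR-129-5p, at -0.04 (-0.10 to 0.03), and miR-212, at 0.08 (-0.004 to 0.17), were within counting error. Intervals above 0 were found for 2 of the 5 and for 28.6% of all miRNAs, and 0 of the 5 passed 2-fold, as 1.28% of all did. For miR-129-3p, the log2 ratio between these libraries was larger than that between 5 μg/L and blank larvae, and 0.78 of that between 500 μg/L and blank larvae. For miR-132-3p the same fraction was 0.25. Both fractions use libraries that entered the choice and are a description.

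Between the concentrations, all 5 were higher in 500 μg/L than in 5 μg/L larvae, as were 48.7% of all 234. Here too the 500 μg/L library had entered the choice, and the values are a description. miR-132-3p had a log2 ratio of 0.59 (0.50 to 0.67), miR-129-5p of 0.53 (0.47 to 0.58), miR-212 of 0.41 (0.33 to 0.49) and miR-129-3p of 0.35 (0.22 to 0.47). miR-132-5p, at 0.37 (-0.07 to 0.82), was within counting error. The 4 intervals above 0 compare with 34.6% of all miRNAs, and 0 of the 5 were beyond 2-fold, as 1.71% of all were. The summed level of the 5 miRNAs was 8308 normalized counts in blank larvae, 7889 in DMSO larvae, 9046 in 5 μg/L larvae and 12712 in 500 μg/L larvae.

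**Figure D2:**
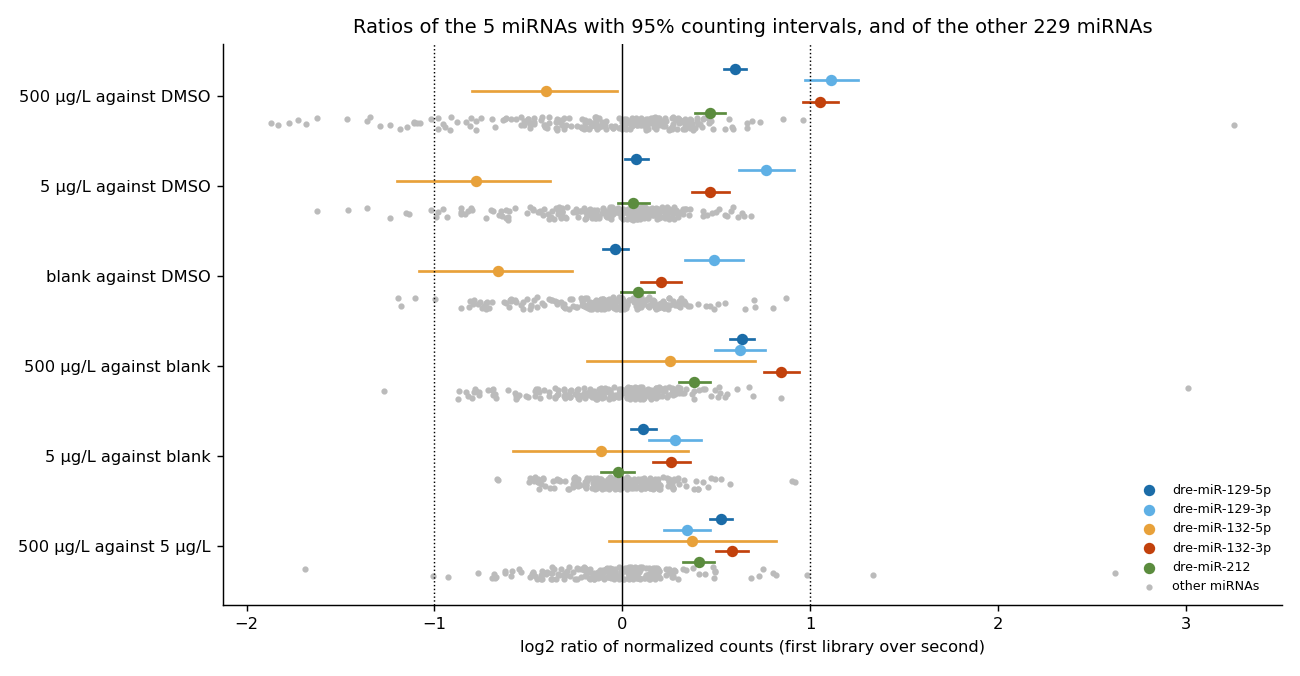
Log2 ratios of normalized counts (x axis) in the 6 comparisons (y axis, first library over second) for the 5 miRNAs, as coloured points with 95% counting intervals, and for the other 229 miRNAs as grey points. Dotted lines mark 2-fold, which miR-129-3p at 1.11 and miR-132-3p at 1.05 pass between 500 μg/L and DMSO larvae and none of the 5 passes in the other comparisons.

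Shares of reads within a library do not depend on how libraries are scaled. Mature sequences were not used, so which gene copies give the entry of each arm was not checked. The 3p arm made up 18.1% of the miR-129 reads in blank larvae (17.0 to 19.4%), 13.3% in DMSO larvae (12.4 to 14.4%), 19.9% in 5 μg/L larvae (18.8 to 21.1%) and 18.02% in 500 μg/L larvae (17.1 to 19.0%). The DMSO library stood apart from the other 3, and the intervals of 500 μg/L and blank larvae overlapped. The choice used miR-129-3p, as higher in 500 μg/L than in DMSO larvae. A low 3p share in DMSO larvae was therefore partly fixed by it. The log2 change of the ratio of 3p to 5p was ranked by size over the 32 hairpins with both arms among the 234 miRNAs. For miR-129 it was 0.51 between 500 μg/L and DMSO larvae, at rank 15, and -0.01 between 500 μg/L and blank larvae, at rank 31.

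The arms of miR-132 gave a larger contrast. miR-132-5p was 5.16% of the miR-132 reads in blank larvae (4.11 to 6.39%), 9.09% in DMSO larvae (7.73 to 10.6%), 4.02% in 5 μg/L larvae (3.20 to 4.98%) and 3.49% in 500 μg/L larvae (2.84 to 4.25%). The DMSO library was again apart from the others. The intervals of 500 μg/L and blank larvae overlapped only between 4.11 and 4.25%, which does not show that these shares were alike. miR-132-3p entered the choice in the same way as miR-129-3p. A high 5p share in DMSO larvae, and the changes from DMSO larvae given next, were therefore partly fixed by it. The log2 change of the ratio of 3p to 5p was 1.46 between 500 μg/L and DMSO larvae, at rank 2 of the 32 hairpins, whose median size was 0.44. Between blank and DMSO larvae it was 0.87 and ranked 1, with a median size of 0.31. Against blank larvae it was 0.59 in 500 μg/L larvae, at rank 9, and 0.38 in 5 μg/L larvae, at rank 8. The part of the arm shares of the DMSO library in the ratios to it was not tested.

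Within the neighbouring pair, the share of miR-132-3p in the reads of miR-132-3p and miR-212 was 41.3% in blank larvae (39.7 to 42.9%), 39.2% in DMSO larvae (37.6 to 40.8%), 46.1% in 5 μg/L larvae (44.6 to 47.7%) and 49.2% in 500 μg/L larvae (47.9 to 50.6%). Both BDE47 libraries lay above blank and DMSO larvae with intervals apart, while blank and DMSO larvae overlapped. The choice used miR-132-3p in the 500 μg/L and DMSO libraries, and miR-212 was not named in it. Differences of the pair between these libraries were therefore partly fixed by the choice. The blank and 5 μg/L libraries did not enter it. The sum of the pair was 5686 normalized counts in 500 μg/L larvae, against 3435 in DMSO larvae and 3768 in blank larvae, log2 ratios of 0.73 (0.67 to 0.79) and 0.59 (0.53 to 0.66). In 5 μg/L larvae the sum was 4042, with a log2 ratio of 0.10 (0.04 to 0.17) to blank larvae. How reads that could match either entry were counted was not given in the sources used here, so the division between miR-132-3p and miR-212 is less certain than their sum.

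**Figure D3:**
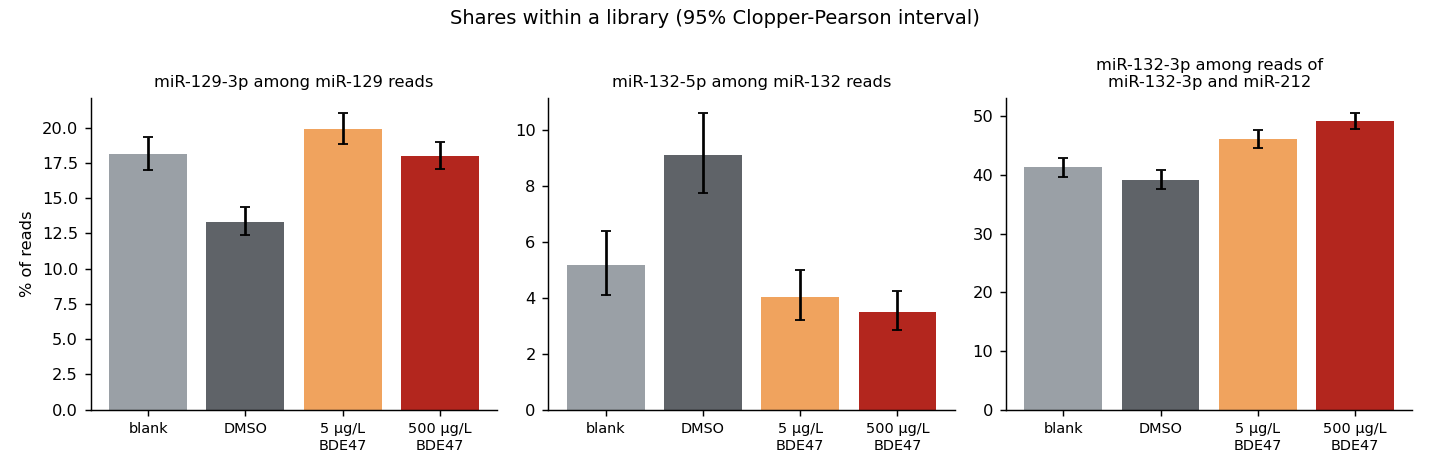
Percent of reads (y axis from 0) in blank, DMSO, 5 μg/L and 500 μg/L larvae that were miR-129-3p among both arms of miR-129, miR-132-5p among both arms of miR-132, and miR-132-3p among miR-132-3p and miR-212, with Clopper-Pearson 95% intervals. The DMSO library stands apart for the arms of both hairpins (13.3% and 9.09%), and the BDE47 libraries are above the other libraries for miR-132-3p beside miR-212 (46.1% and 49.2%). The choice used miR-129-3p and miR-132-3p in the DMSO and 500 μg/L libraries, so the shares of these libraries are partly fixed by it.

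Other miRNAs of the nervous system were set beside the group. The list held miR-9, miR-124, miR-128, miR-137, miR-138, miR-153 and miR-218, known from neurons and neural progenitors, with 11 entries among the 234. Between 500 μg/L and DMSO larvae, 0 were more than 2-fold higher and 1 was more than 2-fold lower. This was miR-153a, from a family that represses the synaptic protein SNAP-25 in zebrafish, with 9531 normalized counts in 500 μg/L larvae, 20540 in DMSO larvae and a log2 ratio of -1.11 (-1.14 to -1.07). The highest was miR-128, abundant in neurons, with 31641 normalized counts in 500 μg/L larvae, 24630 in DMSO larvae and a log2 ratio of 0.36 (0.34 to 0.39). The median of the list was -0.16, and that of all 234 miRNAs was 0.02. No contrast with the 5 miRNAs is drawn here, since these libraries chose them.

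Against blank larvae, the list had a median log2 ratio of -0.10 in 500 μg/L larvae with 4 of 11 entries higher, and miR-128 was highest at 0.85. In 5 μg/L larvae, the median of the list was -0.22 against DMSO larvae. In blank larvae, without BDE47, it was -0.21 against DMSO larvae with 2 of 11 entries higher, and miR-153a was at -0.72. Between 5 μg/L and blank larvae, neither of which entered the choice, the medians were 0.11 for the 5 miRNAs, -0.02 for the list and -0.01 for all 234. The list itself was chosen with earlier results of these data known. Of the 5 miRNAs, 3 were higher in 5 μg/L than in blank larvae, as were 5 of the 11 entries of the list and 47.9% of all 234. The highest entry was miR-128 at 0.92, above miR-129-3p, the highest of the 5, at 0.28. In each comparison of this paragraph 0 entries of the list were beyond 2-fold.

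The group was also scaled to the summed reads of this list in the same library. miR-132-3p had 103 reads per 10000 reads of the list in blank larvae, 79.6 in DMSO larvae, 114 in 5 μg/L larvae and 186 in 500 μg/L larvae. miR-129-5p had 241 in blank larvae, 221 in DMSO larvae, 241 in 5 μg/L larvae and 378 in 500 μg/L larvae. miR-212 had 146 in blank larvae, 123 in DMSO larvae, 133.2 in 5 μg/L larvae and 192.1 in 500 μg/L larvae. miR-129-3p had 53.3 in blank larvae, 34.1 in DMSO larvae, 60.05 in 5 μg/L larvae and 83.0 in 500 μg/L larvae. miR-132-5p had 5.59 in blank larvae, 7.96 in DMSO larvae, 4.78 in 5 μg/L larvae and 6.74 in 500 μg/L larvae. On this scale, 4 of the 5 were highest in 500 μg/L larvae, and miR-132-5p was highest in DMSO larvae. The 500 μg/L and DMSO libraries chose the group, so this order was partly fixed and is given as a description. The summed normalized counts of the list were 150262 in 500 μg/L and 169234 in DMSO larvae. The smaller divisor raised every value in 500 μg/L larvae relative to DMSO larvae. In RNA of whole larvae, a change in the number of cells of a type and a change in the RNA per cell cannot be told apart.

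**Figure D4:**
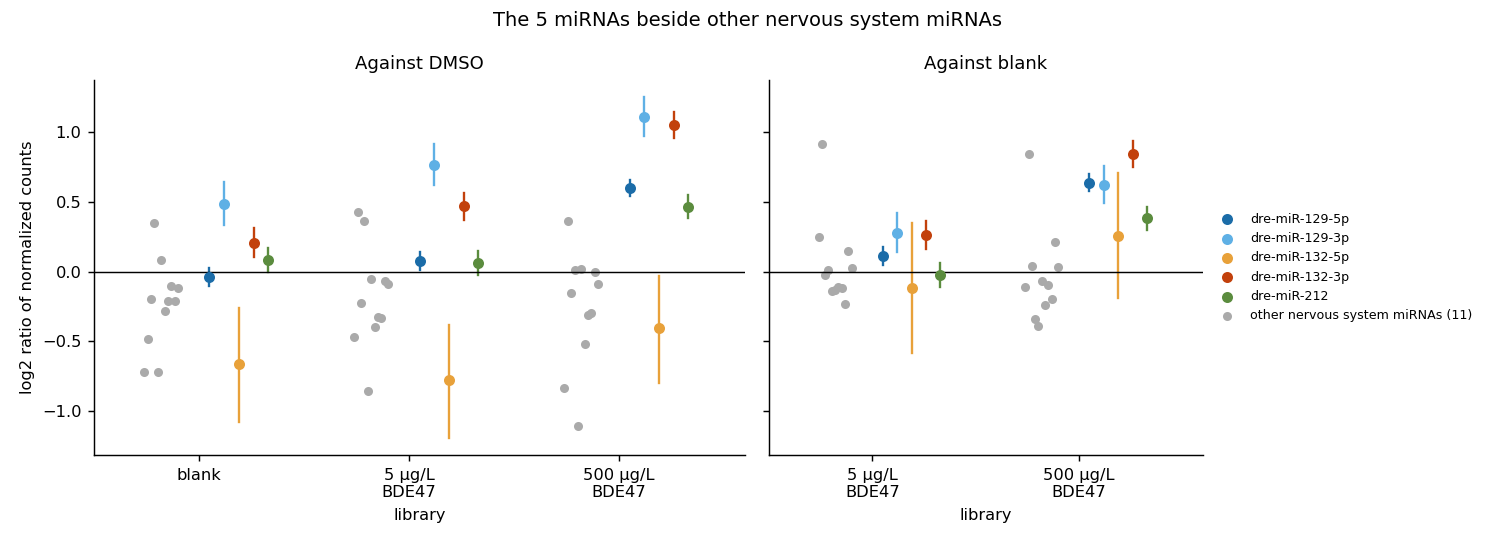
Log2 ratios of normalized counts (y axis) to DMSO larvae for the blank, 5 μg/L and 500 μg/L libraries, and to blank larvae for both concentrations, with the 5 miRNAs as coloured points with 95% counting intervals and the 11 other nervous system miRNAs as grey points. The values of 500 μg/L against DMSO larvae chose the 5 and are a description, and between 5 μg/L and blank larvae, which did not choose them, the medians are 0.11 for the 5 and -0.02 for the list. The list was chosen with earlier results of these data known. Between 5 μg/L and blank larvae the highest of the list is miR-128 at 0.92, and the highest of the 5 is miR-129-3p at 0.28.

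Markers of other tissues differed between the same libraries. Between 500 μg/L and DMSO larvae, the summed normalized counts had log2 ratios of -0.17 for the nervous system list, -1.15 for the 2 glial entries (miR-219 and miR-338), 0.24 for 4 of sensory cells, 0.17 for 8 of muscle, 0.29 for 2 of red blood cells, -0.56 for 5 of white blood cells, -0.50 for 4 of liver and gut and 0.11 for 4 of skin. The nervous system list had 3 entries higher and 8 lower, glia 0 and 2, sensory cells 3 and 1, and muscle 4 and 4. Red blood cells had 1 and 1, white blood cells 2 and 3, liver and gut 1 and 3, and skin 3 and 1. A sum mostly follows its most abundant entries. In DMSO larvae miR-192 held 1682190 of the 1728450 normalized counts of liver and gut. Its log2 ratio was -0.50, beside 0.003 for miR-122. The entries named here and next were chosen after their values were seen. Between the same libraries the red blood cell miRNAs had log2 ratios of -1.68 (miR-144) and 0.67 (miR-451), and the white blood cell entries ran from -1.83 (miR-142b-5p) to 0.59 (miR-150). The glial value lay mainly with miR-219, at -1.77, beside -0.22 for miR-338. Between blank and DMSO larvae, without BDE47, the sums had log2 ratios of -0.68 for glia and -0.39 for white blood cells. They were -0.16 for the nervous system list, -0.15 for liver and gut, -0.08 for red blood cells and -0.005 for muscle. Skin was at -0.003 and sensory cells at 0.05. Between 500 μg/L and blank larvae the sums were at -0.47 for glia, -0.35 for liver and gut and -0.17 for white blood cells. The nervous system list was at -0.01, skin at 0.11, muscle at 0.17, sensory cells at 0.19 and red blood cells at 0.37. The part of tissue composition in the levels of miR-129, miR-132 and miR-212 was not tested.

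The pattern of each of the 5 over the 4 libraries was compared with all others by the root mean square difference of log2 values, each centred on its mean. The 500 μg/L and DMSO libraries that chose the group are among the 4, so likeness within it is partly fixed by the choice. miR-129-3p and miR-132-3p were at 0.13 from each other, and miR-129-5p and miR-212 were at 0.09. Other pairs were less alike. miR-132-3p was at 0.17 from miR-129-5p and at 0.23 from its neighbour miR-212. The arms of miR-129 were at 0.26 from each other, and miR-129-3p was at 0.28 from miR-212. miR-132-5p was further from all of these, from 0.36 for miR-212 to 0.63 for miR-129-3p, beside a median of 0.34 to the miRNAs outside the group. The same median was lowest for miR-212, at 0.22, and highest for miR-129-3p, at 0.42.

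Outside the group, the nearest to miR-129-3p were miR-214 (0.19), a miRNA of mesenchyme, miR-150 (0.19), a miRNA of lymphocytes, and miR-145 (0.21). Like miR-129-3p, all 3 had their lowest level in DMSO larvae. The nearest to miR-132-3p were miR-2191 (0.19), miR-204 (0.19), a miRNA of the eye, and miR-27c-5p (0.23).

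miR-129-5p had miR-2191 (0.03), miR-27c-5p (0.08) and miR-126a-3p (0.10), a miRNA of the endothelium, as its nearest. miR-212 had miR-29a (0.05), which targets collagen mRNAs in mammals, miR-27c-5p (0.05) and miR-2188-5p (0.05). miR-132-5p was nearest to miR-126a-5p (0.08), miR-126b-5p (0.08) and miR-1 (0.12), the last a miRNA of muscle. miR-126a-5p, for example, had 10911 normalized counts in blank larvae, 15845 in DMSO larvae, 9843 in 5 μg/L larvae and 11247 in 500 μg/L larvae, highest in DMSO larvae as miR-132-5p was. With 4 libraries, such nearness is a description of these libraries.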

How the data were processed

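Small RNA was sequenced from whole zebrafish larvae in 4 libraries, 1 per condition. The authors filtered the reads by base quality, length and adaptor sequence, mapped them to zebrafish miRNAs of miRBase version 21 and counted them. The deposited signal is the read count of each miRNA over a size factor of its library. Every value (100%) was a whole multiple of 1 number per library within 0.01 reads, so reads were read back for the intervals. The size factors, from 0.933 to 1.09, were those of median-of-ratios scaling, which assumes that most miRNAs do not change.

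A pseudocount of 1 was added before taking log2, and miRNAs with a mean under 10 were left out. With 1 library per condition no test between conditions was run. Called means beyond 2-fold, and an interval above 0 is a statement on counting error alone. The members and the lists were chosen with earlier results of these data known. Named miRNAs were the 5 members, the 3 with the nearest pattern to each, those next to a called member in the order of ratios, and from the nervous system list those beyond 2-fold in any comparison and the extremes between 500 μg/L and DMSO larvae. Entries of the other tissue lists given with their own ratios followed no such rule and were picked after their values were seen. The calculations were tested on simulated data. Software was Python (3.11.15) with scipy (1.17.1), numpy (2.4.6), pandas (2.3.3) and matplotlib (3.10.9). Mature sequences were not used here.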

Additional observations from a re-analysis of the deposited data

How the results depend on the processing

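Of the 5 miRNAs, 2 were beyond 2-fold between 500 μg/L and DMSO larvae. Scaling to the total of the listed reads left 1, miR-129-3p at 1.04, with miR-132-3p at 0.98. Adding the arms of each hairpin, or using the mean of the blank and DMSO libraries as the control, left 0, and with that mean miR-129-3p was at 0.85 and miR-132-3p at 0.95. A threshold of 1.5-fold gave 3 in 500 μg/L (20.9% of all 234) and 2 in 5 μg/L larvae (15.4%) against DMSO larvae, and 1 between blank and DMSO larvae (13.2%). It gave 3 between 500 μg/L and blank larvae (11.1%) and 1 between the concentrations (8.97%). Between 5 μg/L and blank larvae, neither of which entered the choice, it gave 0 (1.71%). These counts take either direction. miR-132-5p, lower than in DMSO larvae, was the 1 counted in blank larvae and 1 of the 2 in 5 μg/L larvae. With 2-fold, all comparisons but that of 500 μg/L with DMSO larvae gave 0. Pseudocounts of 0.1 and 10, no filter, a mean of at least 100 (which dropped miR-132-5p) and median-of-ratios scaling after the filter changed no count. Of the alternative log2 ratios of the 5 miRNAs, 177 stayed within their counting intervals and 17 moved, 11 with another control and 6 with scaling to the total. Blank larvae as the control moved 7 of 10, the mean of both controls 4 of 10, and scaling to the total 6 of 30. The pseudocounts, the filters and scaling after the filter moved 0, but these settings leave the ratios nearly or wholly unchanged by construction. The 177 is therefore no measure of stability. Of all alternative ratios, 4 changed sign: miR-132-5p in 500 μg/L larvae (0.26) and miR-212 in 5 μg/L larvae (-0.02) with blank larvae as the control, and miR-129-5p (-0.05) and miR-212 (-0.06) in 5 μg/L larvae with scaling to the total. A two-sided Fisher's exact test of each miRNA's reads, with Benjamini-Hochberg adjustment over 234 miRNAs, compares libraries and not conditions. It placed 185 miRNAs under 0.05 for 500 μg/L and 161 for 5 μg/L against DMSO larvae, 170 for blank against DMSO larvae, 164 and 167 for 500 and 5 μg/L against blank larvae, and 163 between the concentrations. The depth resolves small differences between libraries, and the single library per condition is the limit.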
